A study of Homo sapiens with 4 samples.

Results

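The aminoacyl-tRNA synthetases are the enzymes that load each transfer RNA with its amino acid. This account covers 36 of their genes, taken by gene name from the 58735 genes of the deposited table. Of these, 20 encode enzymes of the cytosol and 16 encode enzymes of the mitochondrion, which in this naming end in 2. GARS and KARS each give rise to both a cytosolic and a mitochondrial enzyme and are counted here with the cytosolic set, as is QARS. All 36 were found, each as a single row.

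A synthetase activates its amino acid with ATP and joins it to the matching transfer RNA, which then enters the ribosome. The cytosolic and mitochondrial protein synthesis systems have largely separate enzymes, all of them encoded in the nucleus. The enzymes fall into class I and class II, which differ in the fold of the catalytic domain, and several cytosolic ones sit together in the multisynthetase complex on the scaffold proteins AIMP1, AIMP2 and EEF1E1. When an amino acid runs short, uncharged transfer RNA activates the kinase GCN2 and translation of the transcription factor ATF4 rises. ATF4 binds C/EBP-ATF response elements and is known to induce amino acid transporters, amino acid synthesis enzymes and many of the cytosolic synthetase genes.

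RNA was sequenced from 2 libraries labelled 30 Gy and 2 libraries labelled 0 Gy, the gray being the unit of absorbed radiation dose. The sample labels give human lung squamous cell carcinoma as the cell line, and the series' design text names the SK-MES-1 line and SK-MES-1-RR, its radiotherapy-resistant derivative. Which of these lines each library came from, how the dose was given and when RNA was taken are not stated, and no genotype or drug treatment is given for any group. Nothing states that the replicates were separate cultures, so the p-values rest on a spread between libraries that may be technical.

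Recovered depth was 15920861 to 15979341 reads in the 30 Gy libraries and 16773381 to 17261121 reads in the 0 Gy libraries. Of 8 squamous and basal markers, KRT5, KRT6A, KRT6B and DSG3 were listed at 0 in all 4 libraries and TP63 stood between 3.19 and 4.14 FPKM (reads per unit of gene length and library depth). A listed 0 in this table is not by itself a sign of absent expression, since EEF1G, an elongation factor subunit that cells generally express, was also listed at 0 throughout. KRT14, SOX2 and DSC3 were above 0 in some libraries but too low to be tested. KRT14 had at most 4 reads. SOX2 had 22 and 19 reads at 30 Gy, against 11 and 4 reads at 0 Gy. DSC3 had 70 and 73 reads at 30 Gy, against 43 and 33 reads at 0 Gy. The labelled squamous identity could therefore be neither shown nor refuted from these markers. The 8 summed to 4.42 to 4.51 FPKM at 30 Gy and 4.50 to 4.61 at 0 Gy. Epithelial keratins were abundant, with the 6 simple epithelial markers summing to 368 to 402 FPKM at 30 Gy and 333 to 344 at 0 Gy. Within that sum KRT7 rose, at 221 and 200.9 FPKM at 30 Gy, against 96.2 and 95.3 FPKM at 0 Gy (limma adjusted p = 0.00232), and KRT19 fell, at 92.8 and 84.1 FPKM, against 165 and 159 FPKM (adjusted p = 0.00424). The markers of that list other than keratins were low. EPCAM had 3.48 and 3.42 FPKM at 30 Gy, against 5.91 and 3.83 FPKM at 0 Gy. CDH1 had 0 reads in both 30 Gy libraries, against 2 and 7 reads at 0 Gy. The 6 fibroblast markers summed to 72.4 to 78.7 FPKM at 30 Gy and 62.8 to 63.2 at 0 Gy, nearly all of it COL1A1, while COL1A2 stood at most at 0.00563 FPKM and DCN was listed at 0. PDGFRB had 1.46 and 1.51 FPKM at 30 Gy, against 0.652 and 0.717 FPKM at 0 Gy, and LUM had 43 and 63 reads, against 1 and 5 reads. Neither of the 2 fibroblast markers that could be tested, COL1A1 and PDGFRB, passed in limma (adjusted p = 0.0795 and 0.0535). The part of these epithelial and fibroblast markers in the results below was not tested. The 4 leukocyte markers and the 3 endothelial markers summed to at most 0.727 and 0.121 FPKM in any library.

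The promoter sequences of the members were searched for the core of the C/EBP-ATF response element, the 8 letters TGATGNAA on either strand, because this element is the known link between ATF4 and synthetase genes. The windows ran from 250 bases before to 50 bases after each start site in RefSeq (GRCh38.p14). Windows were held for 16 cytosolic and 14 mitochondrial members. The core was present for 7 of the 16 cytosolic genes and 1 of the 14 mitochondrial genes, that is 43.8% and 7.14%, against 4.46% of all 27305 genes matched to a window. Counted by window, since a gene can have several starts, it was 33.3% of 21 cytosolic, 5.56% of 18 mitochondrial and 3.62% of 35116 windows in all. A match is a description of these letters and not a shown binding site. The 8 stretches are given 5′ to 3′ on the strand of the gene, with the matched letters in capitals. The search fixed every capital letter except the N, so likeness among the capitals follows from the search itself.
AARS: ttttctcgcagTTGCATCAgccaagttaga
CARS: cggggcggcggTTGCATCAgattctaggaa
GARS: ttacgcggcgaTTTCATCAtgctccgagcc
IARS: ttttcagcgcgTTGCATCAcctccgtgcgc
MARS: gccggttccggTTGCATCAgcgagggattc
NARS: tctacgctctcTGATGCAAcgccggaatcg
TARS: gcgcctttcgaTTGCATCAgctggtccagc
YARS2: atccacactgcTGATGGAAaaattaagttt

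In 5 of the cytosolic genes the match read TTGCATCA, and in NARS it was the same element on the other strand. GARS differed at the N of the core. The stretches lay at chr16:70289675-70289704 (AARS, minus strand), chr11:3057407-3057436 (CARS, minus), chr7:30594834-30594863 (GARS, plus), chr9:92293692-92293721 (IARS, minus), chr12:57488053-57488082 (MARS, plus), chr18:57621804-57621833 (NARS, minus), chr5:33440956-33440985 (TARS, plus) and chr12:32756076-32756105 (YARS2, minus). The match began 187 bases before the start site in AARS and 197 bases before it in YARS2. In the other 6 it began between 33 bases before and 14 bases after a start site.

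At 30 Gy, 9 of the 20 cytosolic synthetase genes were lower than at 0 Gy and 1 was higher, whereas of 15 tested mitochondrial ones 2 were lower and 1 was higher. The cytosolic genes that fell were AARS, WARS, SARS, YARS, NARS, GARS, EPRS, MARS and CARS, by 0.28 to 0.70 on the log2 scale, and the one that rose was VARS. MARS2 and EARS2 fell and YARS2 rose in the mitochondrial set. The summed level of the 20 cytosolic genes was 795 ± 21.2 FPKM at 30 Gy and 987 ± 9.64 FPKM at 0 Gy (SD, n = 2 each), a ratio of 0.805. The 16 mitochondrial genes summed to 175 ± 1.51 FPKM at 30 Gy and 179 ± 2.18 FPKM at 0 Gy, a ratio of 0.977. Such sums mostly reflect the abundant genes. In the mitochondrial sum IARS2 averaged 61.1 FPKM at 30 Gy and 67.0 at 0 Gy, and RARS2 averaged 25.4 and 21.3 FPKM. The 9 cytosolic genes that fell summed to 402 and 417 FPKM at 30 Gy, against 588 and 603 FPKM at 0 Gy. They were chosen as lower in these same libraries, so the lower sum follows from the choice and gives only its size.

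These calls came from limma over the 13379 genes that reached 1 FPKM in 2 or more libraries, on log2(FPKM + 1), at an adjusted p under 0.05. Every log2 change is 30 Gy minus 0 Gy on that scale, where the added 1 shrinks the change of low genes. Over all tested genes 19.8% were called, 9.06% lower and 10.8% higher, and the median log2 change was -0.00068. The cytosolic set stood at 45% lower and 5% higher with a median of -0.17, and the mitochondrial set at 13.3% lower and 6.67% higher with a median of 0.03. The mitochondrial shares thus lay near the background. The difference between the compartments as sets was not tested. Most mitochondrial genes lay at lower levels than the cytosolic ones, and the part of level in these counts was not tested. In bulk RNA, a smaller share of cells with a transcript and less of it per cell cannot be told apart. The cytosolic count depended on single libraries. It was 4 lower without the first 30 Gy library and 6 without the second. Without either 0 Gy library it was 0, as was the count over all genes, although before adjustment 10 and 9 cytosolic genes were lower at p under 0.05 when the first or the second 0 Gy library was missing. It was also 4 when every gene above 0 was tested. limma's voom on the recovered reads gave 9.

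**Figure D1:**
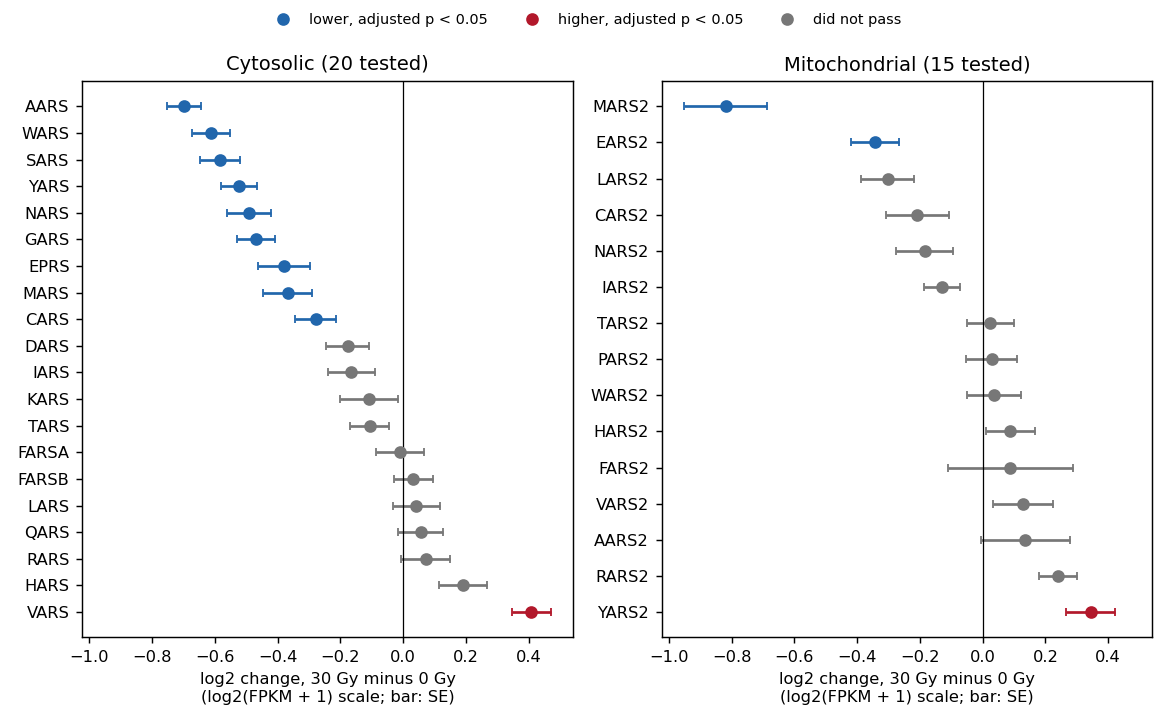
log2 change of each tested synthetase gene (30 Gy minus 0 Gy, on the log2(FPKM + 1) scale; bars are standard errors of the fit to 2 libraries per group), cytosolic genes on the left and mitochondrial genes on the right. In the cytosolic panel 9 genes are called lower and VARS higher, and in the mitochondrial panel MARS2 and EARS2 are called lower and YARS2 higher.

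**Figure D2:**
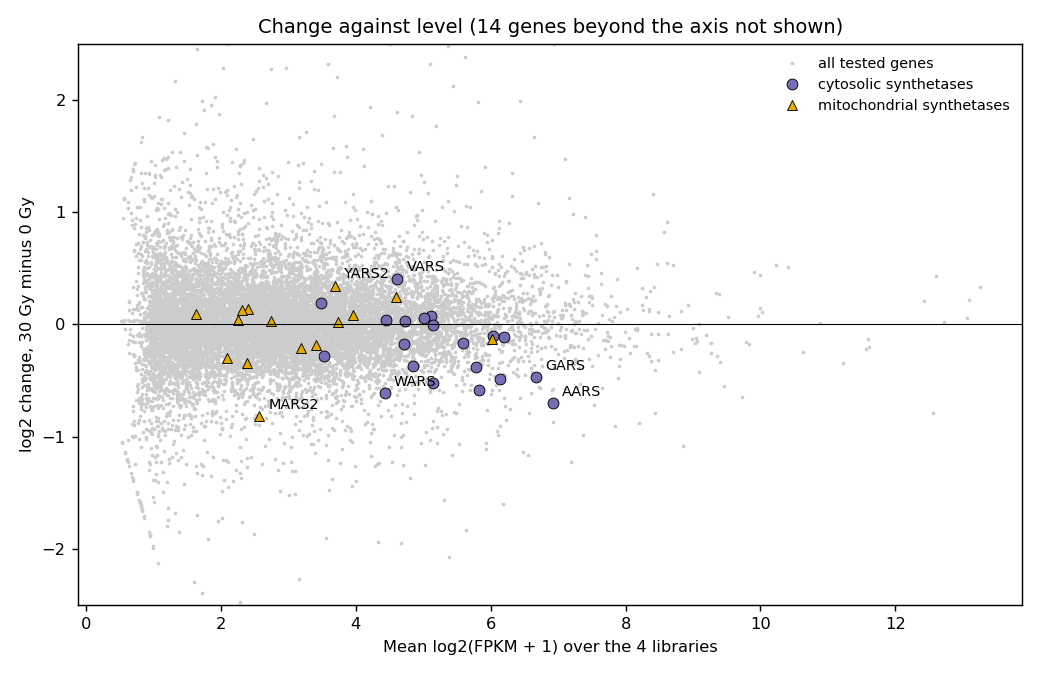
log2 change against mean log2(FPKM + 1) for the 13379 tested genes (grey, 14 genes beyond the axis), with cytosolic synthetases as circles and mitochondrial ones as triangles. The most abundant cytosolic genes, AARS and GARS, lie below 0, and most mitochondrial genes lie at lower levels and close to 0.

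AARS, the alanyl-tRNA synthetase (ENSG00000090861, chr16:70252295-70289543), was the most abundant member by FPKM and the cytosolic one with the largest fall. It stood at 93.5 and 94.1 FPKM in the 30 Gy libraries, against 151 and 155 FPKM in the 0 Gy libraries. Replicates were close in each group and the groups lay far apart. The log2 change was -0.70 ± 0.05 (SE, limma adjusted p = 0.00392), a ratio of means of 0.613. It kept this call in every alternative except when either 0 Gy library was left out (adjusted p = 0.0767 and 0.0800).

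WARS, the tryptophanyl enzyme, which interferon-gamma also induces, had 16.6 and 16.2 FPKM at 30 Gy, against 25.3 and 26.0 FPKM at 0 Gy. SARS, the seryl enzyme, had 44.1 and 47.0 FPKM at 30 Gy, against 70.02 and 67.5 FPKM at 0 Gy. YARS, the tyrosyl enzyme, had 28.9 and 27.9 FPKM at 30 Gy, against 41.0 and 41.4 FPKM at 0 Gy. In all 3 genes both 30 Gy libraries were below both 0 Gy libraries by a wide margin, with log2 changes of -0.61, -0.58 and -0.52 (SE 0.06 each) and limma adjusted p of 0.00613, 0.00768 and 0.00801. WARS and YARS share exon bases with the neighbouring genes WDR25 (287 bases) and S100PBP (396 bases) on the opposite strand, and whether reads were counted by strand is not given in the sources used here.

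NARS, the asparaginyl enzyme, had 55.7 and 61.0 FPKM at 30 Gy, against 80.6 and 84.1 FPKM at 0 Gy, and fell by 0.49 (SE 0.07, limma adjusted p = 0.0143). GARS, which supplies glycyl-tRNA in both compartments, had 83.6 and 88.4 FPKM at 30 Gy, against 118 and 121 FPKM at 0 Gy, and fell by 0.47 (SE 0.06, adjusted p = 0.0113). Neither gene's groups overlapped. Both carry the response element core shown above, as do AARS, MARS and CARS among the genes that fell. Without the first 30 Gy library both missed the threshold (adjusted p = 0.0612 for NARS and 0.0589 for GARS), with log2 changes of -0.43 in each. They missed it as well without either 0 Gy library and when every gene above 0 was tested.

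EPRS, a single protein with glutamyl and prolyl activity, had 44.4 and 50.2 FPKM at 30 Gy, against 59.6 and 63.9 FPKM at 0 Gy. MARS, the methionyl enzyme, had 25.7 and 22.8 FPKM at 30 Gy, against 31.1 and 32.0 FPKM at 0 Gy. CARS, the cysteinyl enzyme, had 9.44 and 9.52 FPKM at 30 Gy, against 11.5 and 11.9 FPKM at 0 Gy. The groups were apart for each of these genes, but the changes of -0.38, -0.37 and -0.28 (SE 0.08, 0.08 and 0.06) were the smallest among the 9 and their limma adjusted p were closest to the threshold, at 0.0378, 0.0342 and 0.0429. CARS missed it after rescaling to equal sums (adjusted p = 0.0559) and, with MARS, in the fit with the replicate number as a block (0.0679 for CARS and 0.0579 for MARS). Leaving out any 1 library, or testing every gene above 0, ended the calls of MARS, EPRS and CARS. At its 3′ end MARS shares 355 exon bases with DDIT3 on the opposite strand, an ATF4 target that fell to 10.7 and 8.85 FPKM at 30 Gy, against 19.4 and 18.7 FPKM at 0 Gy. Its part in the MARS value was not tested.

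VARS, the valyl enzyme, which associates with the elongation factor that delivers charged transfer RNA, went the other way. It had 28.0 and 26.6 FPKM at 30 Gy, against 20.1 and 20.4 FPKM at 0 Gy, and both 30 Gy libraries were higher. It rose by 0.41 ± 0.06 (SE, limma adjusted p = 0.0160), a call lost without any single library (adjusted p = 0.0559 to 0.117) and when every gene above 0 was tested (0.0533).

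The other 10 cytosolic genes did not pass. DARS (aspartyl), IARS (isoleucyl) and TARS (threonyl) had both 30 Gy libraries below both 0 Gy libraries, with log2 changes of -0.18, -0.16 and -0.11 and limma adjusted p of 0.129, 0.178 and 0.281. DARS had 22.8 and 24.8 FPKM at 30 Gy, against 26.7 and 27.3 FPKM at 0 Gy. IARS had 43.4 and 45.1 FPKM at 30 Gy, against 47.1 and 52.3 FPKM at 0 Gy, and TARS had 60.3 and 64.1 FPKM, against 65.8 and 68.4 FPKM. IARS and TARS carry the response element core as well, so the core was not limited to genes that fell. HARS, the histidyl enzyme, had 11.5 and 10.5 FPKM at 30 Gy, against 9.64 and 9.36 FPKM at 0 Gy, without passing (log2 change 0.19, adjusted p = 0.137). KARS (lysyl), FARSA and FARSB (the alpha and beta subunits of the phenylalanyl enzyme), LARS (leucyl), QARS (glutaminyl) and RARS (arginyl) had overlapping groups, log2 changes between -0.11 and 0.07 and adjusted p of 0.437 to 0.943. In all, 12 cytosolic genes had groups that did not overlap with 30 Gy lower and 2 with 30 Gy higher, where the shares over all tested genes were 32.3% and 32.9%.

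**Figure D3:**
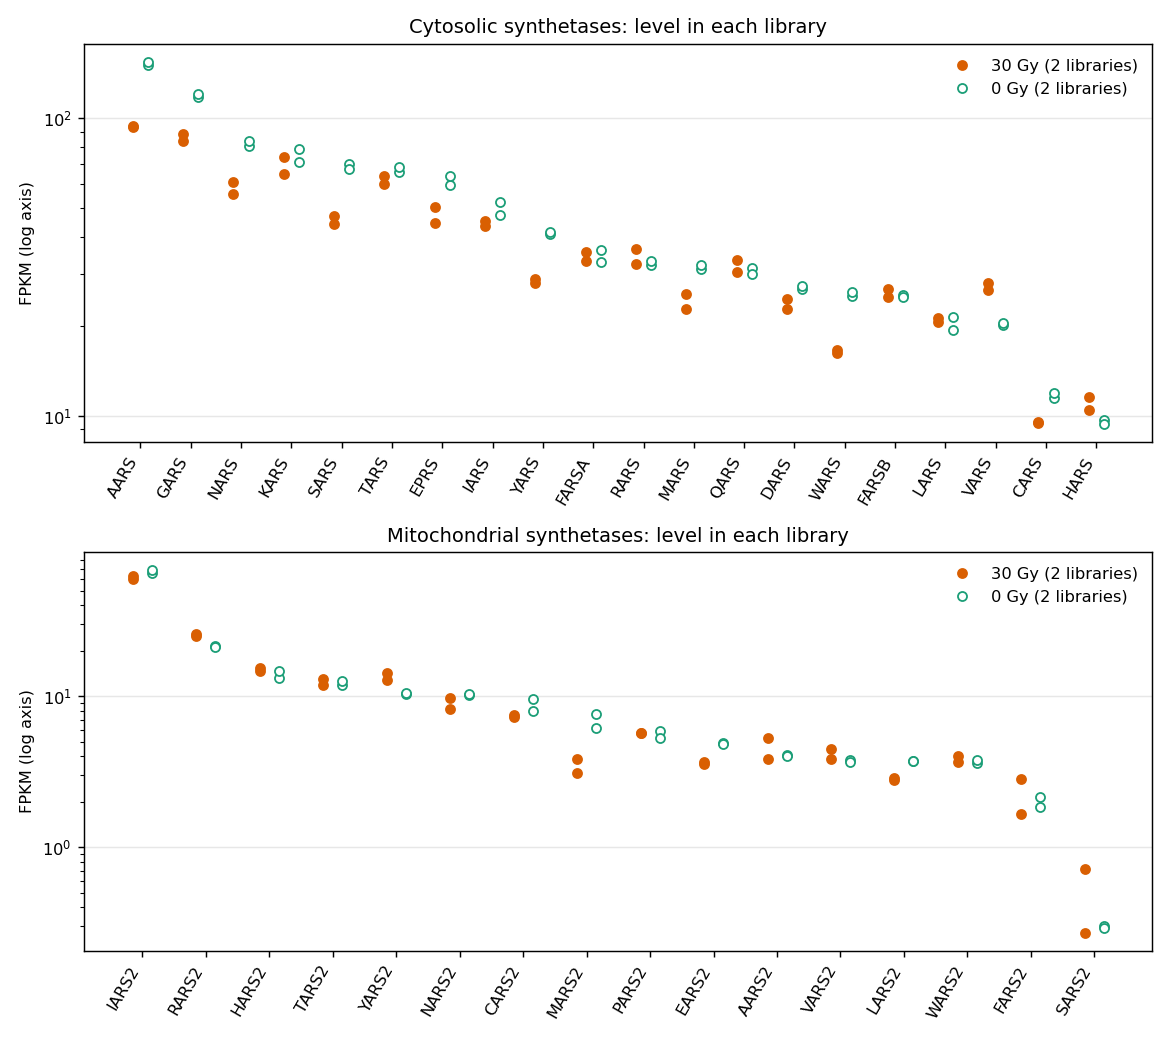
FPKM of every synthetase gene in each library on a log axis, ordered by the mean at 0 Gy within each compartment, with the 2 libraries at 30 Gy as filled points left of the 2 at 0 Gy as open points. AARS, at 93.5 and 94.1 FPKM at 30 Gy and 151 and 155 FPKM at 0 Gy, is the highest, and SARS2, at 0.272 to 0.717 FPKM, is the lowest.

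The cytosolic genes were also read by assembly and by class. Of the 8 enzymes of the multisynthetase complex (EPRS, IARS, LARS, MARS, QARS, RARS, KARS and DARS), 2 fell and 0 rose, with a median log2 change of -0.14. Of the 12 cytosolic genes outside the complex, 7 fell and 1 rose, with a median of -0.37 and a range of -0.70 to 0.41. Over all tested genes 9.06% fell and 10.8% rose. The difference between the genes in the complex and those outside it was not tested. The scaffold genes did not pass. AIMP1 had 15.2 and 17.7 FPKM at 30 Gy, against 20.3 and 18.1 FPKM at 0 Gy, and AIMP2 had 29.2 and 25.9 FPKM, against 30.01 and 30.6 FPKM. EEF1E1 had 8.41 and 6.92 FPKM at 30 Gy, against 5.67 and 5.14 FPKM at 0 Gy (log2 change 0.43, limma adjusted p = 0.0542), and it passed as higher with voom, with the filter of FPKM 5 and with the replicate block. Of the complex, EPRS and MARS lost their calls without any 1 library, as given above. By class, 5 fell and 1 rose of the 10 class I genes (median -0.22), and 4 fell and 0 rose of the 10 class II genes (median -0.14). EPRS, 1 of the 5, was counted in class I only, although its prolyl part is of class II.

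Split by the promoter search, 5 of the 7 cytosolic genes with the response element core fell and 0 rose, with log2 changes from -0.70 to -0.11 and a median of -0.37. Of the 9 cytosolic genes whose windows lacked it, 3 fell and 0 rose, with log2 changes from -0.61 to 0.19 and a median of -0.01. The 3 were WARS, SARS and EPRS. The other 4 cytosolic genes, DARS, LARS, VARS and YARS, had no window and could not be placed. Of these, YARS fell by 0.52 and VARS rose by 0.41. Over all tested genes 9.06% fell and 10.8% rose. YARS2, the mitochondrial gene with the core, rose. The difference between genes with and without the core was not tested, and its absence says only that these letters were not in these windows.

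**Figure D4:**
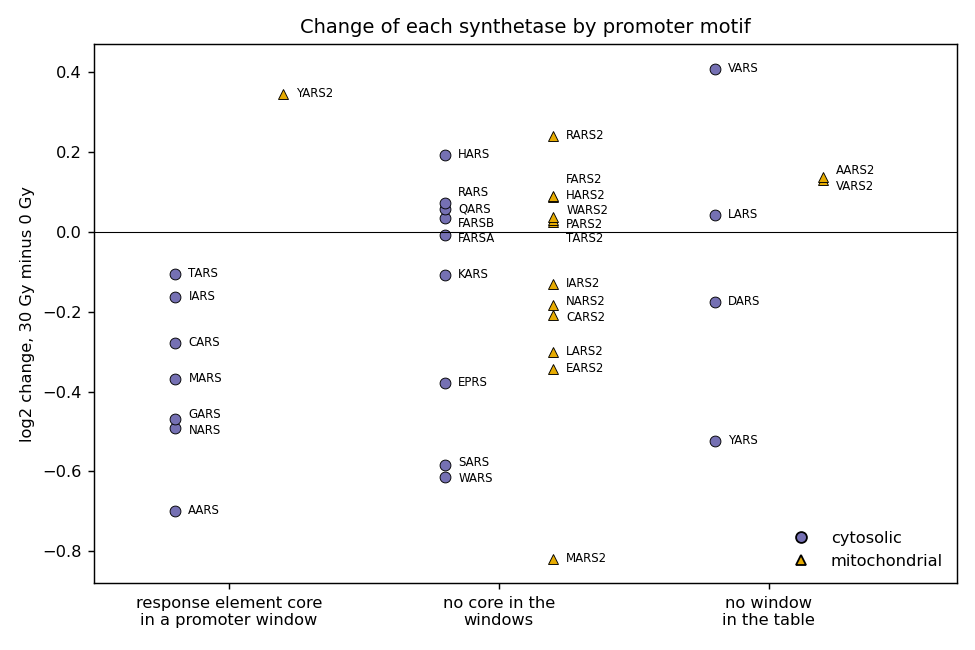
log2 change (30 Gy minus 0 Gy) of each tested synthetase gene, split by whether a RefSeq promoter window held the response element core, lacked it or was missing, with cytosolic genes as circles and mitochondrial genes as triangles. The 7 cytosolic genes with the core lie between -0.70 and -0.11, and the 9 without it between -0.61 and 0.19.

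Among the mitochondrial enzymes, MARS2 had the largest fall of any member. This methionyl enzyme loads the transfer RNA that also starts mitochondrial protein synthesis once it has been formylated. MARS2 had 3.11 and 3.85 FPKM (150 and 185 reads) at 30 Gy, against 6.204 and 7.62 FPKM (326 and 391 reads) at 0 Gy. The groups did not overlap, though the replicates of each group were less alike than in AARS. The log2 change was -0.82 ± 0.13 (SE, limma adjusted p = 0.0188) and the ratio of means 0.504. The call was lost without the first 30 Gy library (adjusted p = 0.0722), without either 0 Gy library (0.102 and 0.129) and when every gene above 0 was tested (0.0972). MTFMT, the formyltransferase that follows MARS2, had 5.37 and 5.75 FPKM at 30 Gy, against 4.60 and 4.73 FPKM at 0 Gy, and did not pass (adjusted p = 0.118).

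EARS2, the mitochondrial glutamyl enzyme, also loads the glutamine transfer RNA with glutamate, which the GatCAB amidotransferase then turns into glutamine. EARS2 had 3.57 and 3.69 FPKM at 30 Gy, against 4.90 and 4.85 FPKM at 0 Gy, and fell by 0.34 ± 0.08 (SE, limma adjusted p = 0.0394). Replicates were close and the groups lay apart. It shares 370 exon bases with UBFD1 on the opposite strand, which stood at 9.89 to 10.9 FPKM at 30 Gy and 12.5 to 13.1 FPKM at 0 Gy. The part of those reads in the EARS2 value was not tested. Of the amidotransferase subunits GATC fell to 4.70 and 5.13 FPKM at 30 Gy, against 6.52 and 6.48 FPKM at 0 Gy (adjusted p = 0.0402). QRSL1 had 5.30 and 4.88 FPKM at 30 Gy, against 5.996 and 6.48 FPKM at 0 Gy, and GATB had 1.61 and 1.71 FPKM, against 2.24 and 2.46 FPKM. Neither passed (adjusted p = 0.0941 and 0.0936), and with MTFMT these 4 genes gave 3 lower calls with voom. The GATC call was lost with no filter, with the replicate block and without any 1 library. The EARS2 call was lost without any single library (adjusted p = 0.103 to 0.185), when every gene above 0 was tested (0.108) and with the replicate block (0.0704).

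YARS2, the mitochondrial tyrosyl enzyme, rose. It had 12.8 and 14.3 FPKM at 30 Gy, against 10.3 and 10.5 FPKM at 0 Gy, so both 30 Gy libraries were higher (log2 change 0.34 ± 0.08, SE, limma adjusted p = 0.0399). Part of the gene, 18161 bases, overlaps DNM1L on the opposite strand, with no exon bases shared. DNM1L stood at 18.2 and 17.6 FPKM at 30 Gy, against 11.8 and 12.3 FPKM at 0 Gy, and its part in the YARS2 value was not tested. The call was lost without any single library (adjusted p = 0.0669 to 0.188), when every gene above 0 was tested (0.115), after rescaling to equal sums (0.0515) and with the replicate block (0.0553).

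The other 12 tested mitochondrial genes did not pass. LARS2 and RARS2 came closest. LARS2, the leucyl enzyme, had 2.77 and 2.88 FPKM at 30 Gy, against 3.71 and 3.72 FPKM at 0 Gy (log2 change -0.30, limma adjusted p = 0.0660), and RARS2, the arginyl enzyme, had 25.8 and 24.9 FPKM, against 21.5 and 21.1 FPKM (0.24, adjusted p = 0.0508). In both the groups were apart, and the test on the recovered reads with voom called LARS2 lower (adjusted p = 0.0197). IARS2, at 60.2 and 62.1 FPKM at 30 Gy, against 66.0 and 68.0 FPKM at 0 Gy, was the most abundant mitochondrial member by FPKM (log2 change -0.13, adjusted p = 0.171). CARS2 and NARS2 also had both 30 Gy libraries lower, with changes of -0.21 and -0.18, and VARS2 had both higher, with 0.13. AARS2, FARS2, HARS2, PARS2, TARS2 and WARS2 had overlapping groups and changes between 0.02 and 0.14. In AARS2 and FARS2 the replicates at 30 Gy differed by more than the groups did: FARS2 had 2.81 and 1.66 FPKM at 30 Gy, against 2.15 and 1.85 FPKM at 0 Gy. In all, 6 of 15 mitochondrial genes had groups that did not overlap with 30 Gy lower and 3 with 30 Gy higher, beside 32.3% and 32.9% of all tested genes.

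SARS2, the mitochondrial seryl enzyme, was the member not tested. It had 37 and 14 reads (0.717 and 0.272 FPKM) in the 30 Gy libraries, against 17 and 16 reads (0.302 and 0.291 FPKM) in the 0 Gy libraries. The first 30 Gy library stood above the other 3, and the groups overlapped. Of its length, 46.2% is shared with the annotated gene AC011455.2 on the same strand, which had 0 reads in every library, and 349 exon bases are shared with MRPS12 on the opposite strand, which stood between 14.0 and 16.6 FPKM. How the counting treated shared bases is not given in the sources used here, so the level of SARS2 is uncertain, as is that of VARS2, which shares 22.0% of its length with GTF2H4.

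Enzymes for the same amino acid can be set side by side across the compartments within each library. For alanine the ratio of AARS to AARS2 was 17.6 and 24.4 at 30 Gy, against 37.2 and 38.6 at 0 Gy. For tryptophan the ratio of WARS to WARS2 was 4.15 and 4.42 at 30 Gy, against 6.97 and 6.85 at 0 Gy. For tyrosine, the case in which a cytosolic gene fell and its counterpart rose, YARS to YARS2 was 2.26 and 1.95 at 30 Gy, against 3.96 and 3.95 at 0 Gy. The ratio did not overlap between doses in 10 of 16 pairs without SARS2, in 7 of them lower at 30 Gy and in 3 higher. Single genes separated in 32.3% (lower) and 32.9% (higher) of all those tested, and EPRS and FARS2 each enter 2 pairs, so nothing is read from this count. The 3 were LARS to LARS2, MARS to MARS2 and VARS to VARS2. For methionine both genes fell, MARS2 further, and MARS to MARS2 was 8.26 and 5.93 at 30 Gy, against 5.01 and 4.20 at 0 Gy. For glutamate both EPRS and EARS2 fell, and their ratio overlapped, at 12.4 and 13.6 at 30 Gy and 12.1 and 13.2 at 0 Gy. With 2 libraries against 2 no exact test of a ratio can pass, so these are descriptions.

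**Figure D5:**
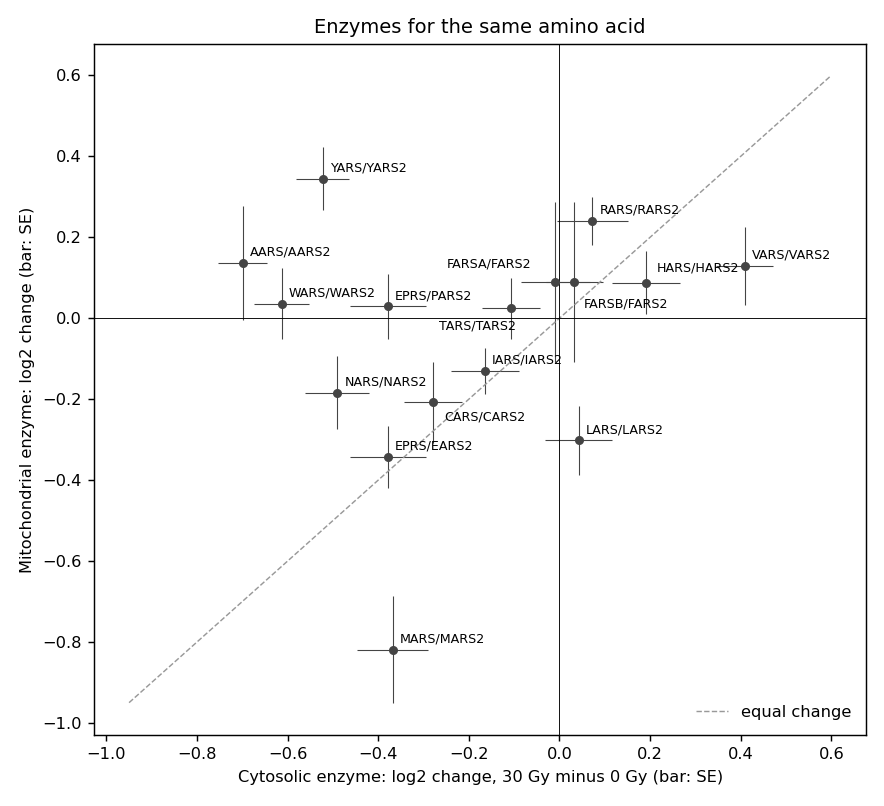
log2 change (30 Gy minus 0 Gy; bars are standard errors) of the mitochondrial gene against that of the cytosolic gene for the same amino acid, with a dashed line of equal change. YARS/YARS2, AARS/AARS2 and WARS/WARS2 lie left of the line, with the cytosolic gene lower and the mitochondrial one at 0.34, 0.14 and 0.04, and MARS/MARS2 lies below it.

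In FPKM, 14 of the 16 pairs had the cytosolic gene above its counterpart in every library, the exceptions being HARS with HARS2 and IARS with IARS2. The deposited lengths equal the union of all annotated exons (GENCODE v29) for every member, and the principal transcript covers 18.0% of that length for CARS2, 26.8% for CARS and 31.1% for HARS, against 100% for MARS2, PARS2 and FARSB. FPKM therefore places genes with many long variants low. Per kilobase of principal transcript, 14 of 16 pairs again had the cytosolic gene above, but the exceptions were then CARS with CARS2 and IARS with IARS2. At 0 Gy, HARS averaged 30.9 and HARS2 21.1 FPKM recomputed with that length, in place of 9.50 and 14.0 FPKM. The recomputed level keeps the reads of all exons but only the principal length. It can therefore place genes with many other exon bases too high. HARS and HARS2 share 437 exon bases on opposite strands and encode similar proteins, so reads between them may be split imperfectly. The order AARS, GARS at the top held on both scales at 0 Gy, but not at 30 Gy. There AARS had 6715 and 6733 reads for a principal length of 3477 bases. GARS had 5544 and 5839 reads for 2634 bases, and KARS had 4212 and 4783 reads for 2005 bases. Per principal kilobase AARS was thus below both GARS and KARS in each 30 Gy library.

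Other genes of the pathway were counted in the same fit. XPOT, which exports transfer RNA from the nucleus, fell to 22.2 and 23.0 FPKM at 30 Gy, against 33.1 and 33.7 FPKM at 0 Gy (limma adjusted p = 0.00762), and TSEN15 of the splicing endonuclease fell by 0.43 on the log2 scale. They were 2 of 19 genes of transfer RNA maturation and export, of which 0 rose (median -0.13), a share of 10.5% lower that is near the 9.06% over all genes. With voom 4 of them were lower and 2 higher. Of 8 tested cytosolic elongation genes 3 fell and 1 rose (median -0.07), that is 37.5% and 12.5%, beside 9.06% and 10.8% over all genes. EEF1A1 and EEF1A2, which carry charged transfer RNA to the ribosome, and EEF2, which moves the ribosome along, fell by 0.35, 0.65 and 0.28, and EIF5A rose by 0.38. The count of 3 became 1 without either 30 Gy library, with the replicate block and with no filter, and EIF5A lost its call with no filter and without any 1 library. EEF1G was listed at 0 in every library. Of 9 mitochondrial translation factors the release factor MTRF1L rose by 0.33 and 0 fell (median -0.08), a share of 11.1% higher beside 10.8% over all genes. That call was lost with no filter, after rescaling to equal sums, with the replicate block and without any 1 library. Of the mitochondrial transamidation and formylation genes, GATC above was the 1 of 4 that fell (median -0.29), a share of 25% beside 9.06% over all genes. None of the 3 tested genes of aminoacylation quality control passed in limma, 0 had an unadjusted p under 0.05, 0 passed with voom, and their median was 0.0017.

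ATF4 itself was lower at 30 Gy, at 96.9 and 98.4 FPKM, against 152 and 142 FPKM at 0 Gy (log2 change -0.58 ± 0.06, SE, limma adjusted p = 0.00757). Of 15 genes that sense amino acid shortage or set ATF4 translation, 5 (33.3%) fell and 0 rose. The 5 were ATF4, the phosphatase regulators PPP1R15A and PPP1R15B, the initiation factor subunit EIF2B5 and GCN1, the partner of GCN2. Over all tested genes 9.06% fell and 10.8% rose. EIF2AK4, which encodes GCN2, had 15.8 and 14.9 FPKM at 30 Gy, against 12.5 and 13.1 FPKM at 0 Gy, and did not pass (adjusted p = 0.0644). Of 25 tested ATF4 target genes outside the synthetase family, 15 (60%) fell and 0 rose, beside the same 9.06% and 10.8%. Their median log2 change was -0.47, and DDIT4 (-1.95), CHAC1 (-1.52), PHGDH (-1.37) and SESN2 (-1.15) fell most. Set beside this, the cytosolic synthetases had 9 of 20 lower, a median of -0.17 and no change beyond -0.70. ASNS, the asparagine synthetase gene, was too low to be tested, at 0.239 and 0.240 FPKM at 30 Gy and 0.748 and 1.14 FPKM at 0 Gy. Without either 0 Gy library 0 genes of any of these lists passed, as over all genes, and without either 30 Gy library 11 ATF4 targets and 1 shortage-sensing gene did. With no filter 9 ATF4 targets and 1 shortage-sensing gene were lower, and with voom 1 ATF4 target and 2 shortage-sensing genes were higher.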

How the data were processed

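The authors deposited FPKM values per gene for 4 libraries, with gene lengths, and per the submitters' processing notes the build is hg38. Neither aligner, counter nor annotation is given in the sources used here. Multiplying FPKM by gene length, with 1 factor per library, gave whole reads for 100% of values above 0 (tolerance 0.001). Genes that reached 1 FPKM in 2 or more libraries entered a two-sided limma 3.58.1 test (R 4.3.3, trended prior) of log2(FPKM + 1), with Benjamini-Hochberg adjustment over all 13379 genes at 0.05. Residual degrees of freedom were 2, with 2.98 from the prior. The members, lists and tests were chosen with earlier results of these data known. All members are named. Further lists are given by their counts and median, with ATF4 and up to 4 genes past the threshold (largest change first). Other genes named (EIF2AK4, ASNS, EEF1G, neighbouring genes, and scaffold and transamidation genes that did not pass) were picked after their values were seen. Replicates differed beyond sampling noise (mean chi-square per gene 5.26 at 30 Gy and 5.66 at 0 Gy). Alternatives were a pseudocount of 0.1, no filter, a filter of FPKM 5, median centring, equal sums, voom, leaving out each library, and the replicate number as block. GENCODE v29 gave exons, and RefSeq the promoter windows. Protein sequences were not used here.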

Additional observations from a re-analysis of the deposited data

How the results depend on the processing

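No called member changed direction in 142 values under the alternatives run. The count over all 13379 genes was 2654, and it was 604 with no filter, 4227 with voom and 0 to 898 with 1 library left out (before adjustment 3422 genes had p under 0.05 when the first 0 Gy library was missing). The counts of cytosolic genes that were lower (9) and higher (1) became 4 and 0 with no filter, and 0 to 6 and 0 with 1 library left out. The mitochondrial counts of 2 lower and 1 higher became 0 and 0 with no filter, 1 and 2 with the filter of FPKM 5 (EARS2 was then not tested), 1 and 0 with the replicate block, and 0 to 1 and 0 with 1 library left out. After rescaling to equal sums 0 mitochondrial genes were higher. The cause of these changes was not tested. Where 1 group keeps a lone library, that library is assumed to vary like the others. Whether libraries with the same replicate number were handled together is not stated. The correlation of their deviations was -0.0263, which does not decide it. With the block 1926 genes and 7 cytosolic genes that were lower passed, on 1 residual degree of freedom. Leaving out a library turned the sign of 10 members that did not pass: the log2 change ran from -0.0758 to 0.0568 in FARSA, -0.0079 to 0.0740 in FARSB, -0.0262 to 0.11 in LARS, -0.0091 to 0.12 in QARS, -0.0101 to 0.16 in RARS, -0.0513 to 0.32 in AARS2, -0.17 to 0.35 in FARS2, -0.0350 to 0.0932 in PARS2, -0.0349 to 0.0841 in TARS2 and -0.0154 to 0.0878 in WARS2. SARS2, with 14 to 37 reads, was too low to be tested.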
